A study of Saccharomyces cerevisiae with 2 samples.

Results

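The genes of the yeast proteasome were selected by name: every gene on the array called PRE, RPN or RPT with a number, together with PUP1, PUP2, PUP3 and SCL1. The rule found 34 of the 5689 gene names on the array. They comprised 14 genes of the core particle (7 of its alpha ring and 7 of its beta ring), 10 of the base, 8 of the lid, and 2 that encode no subunit, RPN4 and RPN14. SEM1, a small lid subunit, has another kind of name and was counted among associated factors. The study holds 1 group of 2 two-colour tiling arrays, replicates 1 and 2, from Saccharomyces cerevisiae strain MDY510, which carries Myc-tagged histone H3. Cells of both arrays were arrested with alpha factor, a mating pheromone that stops the cell cycle before DNA replication, without galactose induction. Per the labels, DNA precipitated with an anti-Myc antibody (Myc-H3 IP) was labelled with Cy5 and the sonicated input (WCE, whole cell extract) with Cy3 on both arrays. The question was how much H3 lies on each stretch of the genome. The strain has no untagged counterpart here, the dyes were not swapped, and separate cultures are not stated for the 2 replicates.

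The proteasome is the protease that breaks down proteins tagged with ubiquitin. Its core particle is a barrel of stacked rings: outer alpha rings form the gate, and inner beta rings carry the proteolytic sites. The regulatory particle sits on the barrel and consists of a base, whose ATPases unfold and thread the substrate, and a lid, which removes the ubiquitin chain. In budding yeast most proteasome genes share an upstream element that is bound by the transcription factor Rpn4, itself a short-lived proteasome substrate, so that the genes are transcribed together.

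Each value below is the log2 ratio of Cy5 over Cy3, centred on the array's median, so that 0 is the median of the array's kept probes. A coding value is the mean of at least 2 probes inside the gene, and a promoter value is the mean of at least 1 probe that the array annotates to the promoter. "Higher" and "lower" mean above or below 0 by limma's moderated test over the 2 arrays, at a Benjamini-Hochberg adjusted p under 0.05. Mitochondrial DNA carries no histones and served as a check of the channels, and it went against the labels: the median log2 ratio of its 230 probes was 4.84 ± 0.10 higher (SD, n = 2 arrays) than the nuclear median. Cy5 is therefore called the channel labelled IP, Cy3 that labelled WCE, and every sign below would turn if the channels were exchanged. Of 218 proteasome probes, 211 were kept, 137 in coding regions and 74 in promoters, out of 40890 kept on the array. Their between-array SD was 0.05, as for nuclear probes in general, and 12.3% were saturated in a channel on an array, against 11.5% of all kept probes. RPN13, with 1 kept coding probe, had no coding value, so 33 coding regions and 34 promoters were measured.

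The coding regions of the alpha ring had the highest median ratio of the complex, 0.27, except with normexp background correction, where it was 0.050 in the alpha ring and 0.11 in the beta ring. Promoters of the core particle had a median of 0.53, with 13 of 14 above 0, and with normexp or normexp and loess all 14 were above 0, at medians of 0.23 and 0.19. In coding regions 12 of 33 proteasome genes were higher, 13 were lower and 8 did not pass the test, against 34.9% higher and 49.1% lower among the 4996 nuclear genes measured. The median was -0.01 over the proteasome genes and -0.04 over all genes. At promoters 25 of 34 were higher, 5 were lower and 4 did not pass, against 70.8% higher and 16.3% lower among 5174 genes. The promoter median was 0.32 for the proteasome genes and 0.23 for all genes. As a whole the complex thus had shares near those of the array, and its parts differed from each other.

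**Figure D1:**
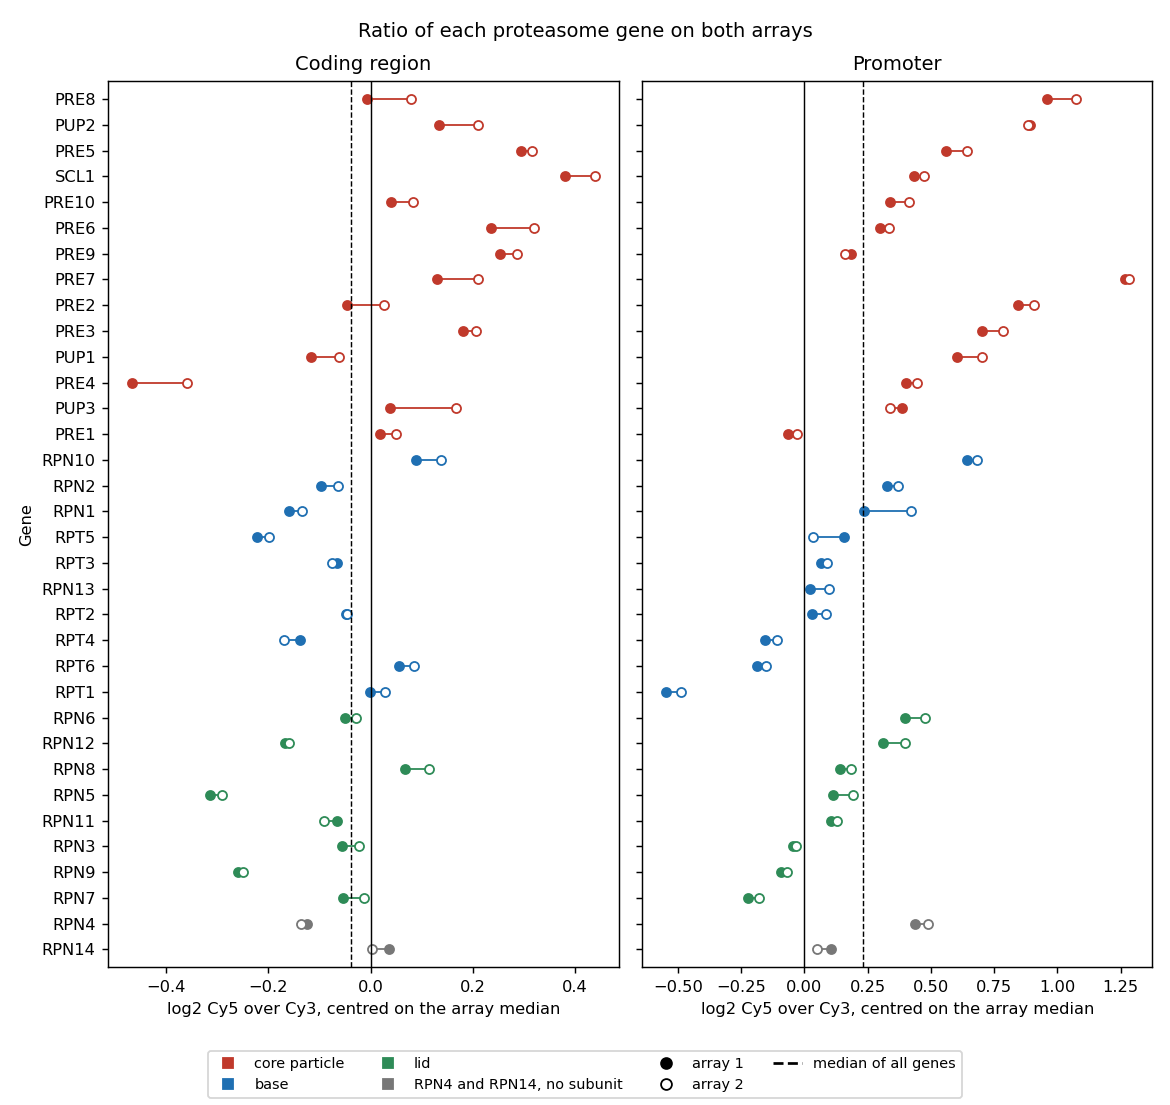
Log2 Cy5 over Cy3 of each proteasome gene in its coding region (left) and promoter (right), with replicate 1 as a filled and replicate 2 as an open circle and the median of all genes as a dashed line. Genes run from the alpha ring at the top through the beta ring, base and lid to RPN4 and RPN14, and within each by promoter ratio. The 7 alpha ring genes lie above 0 on both arrays except PRE8 coding on array 1, and the core particle reaches the highest promoter ratio, 1.28 for PRE7.

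The alpha ring was higher in 6 of 7 coding regions (median 0.27), against 34.9% on the array. It was higher in 7 of 7 promoters (median 0.45), against 70.8%. Its genes had a median of 2 kept coding probes, and among 714 genes of the array with 2 such probes 445 coding regions were higher. SCL1, an alpha ring gene on chromosome 7, had the highest coding ratio of the complex over its kept probes, with 0.38 and 0.44 on arrays 1 and 2. PRE5 (chromosome 13) had 0.29 and 0.31 in its coding region, and PRE6 (chromosome 15) had 0.23 and 0.32. All 3 lay above the other coding regions of the complex on the mean of the arrays, at 0.41 ± 0.04, 0.30 ± 0.02 and 0.28 ± 0.06 (SD, n = 2 arrays). The fourth was PRE9, the one core particle gene that yeast can do without, at 0.27 ± 0.02. PRE6, whose product can take the place of Pre9 in the ring, differed from PRE9 by less than its spread between arrays. PUP2 at 0.17 ± 0.05 and PRE10 at 0.06 ± 0.03 were also higher, and PRE8 had -0.01 and 0.08 on the arrays and did not pass (adjusted p = 0.106).

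SCL1 and PRE5 rested on 2 kept coding probes each, and in both the probe nearest the start was the brighter. In SCL1 the first coding probe had 0.64 and 0.71 and the last 0.12 and 0.16. A further SCL1 coding probe between them was left out by the probe filter. It had 0.10 and 0.08, below both kept probes, so the lead of SCL1 over PRE5 depended on that filter. In PRE5 the first had 0.50 and 0.54 and the second 0.09 and 0.09. The order was the opposite in PRE9, where the last of 3 probes had 0.65 and 0.72, the first 0.24 and 0.29 and the middle one -0.13 and -0.16. A gene mean in the alpha ring can therefore come from a single bright probe at either end.

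PRE8 and PUP2 held the alpha ring's highest promoter ratios. The single PRE8 promoter probe (chromosome 13, 86882 to 86941) gave 0.96 and 1.07, a ratio 2.02-fold that of the median probe. It was a dim probe in both channels, at -1.96 in Cy5 and -2.94 in Cy3 relative to each channel's median. PUP2 shares its promoter with ENO1, an enolase gene of glycolysis on the opposite strand, and its 7 probes (chromosome 7, 999189 to 1000944) averaged 0.89 on both arrays. The bright part lay in the middle of this stretch, with 1.86 and 1.92 at the probe centred 1143 bp from the first coding probe of PUP2. At 534 bp the ratio was 0.11 and -0.01, and at the far end, next to ENO1, it was 0.22 and 0.17. Probe coordinates are those of the array's annotation, whose build no source used here names, and regions run from the first to the last probe.

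In the beta ring, promoters were high and coding regions were mixed. Of its 7 promoters 6 were higher and none was lower (median 0.65), against 70.8% higher and 16.3% lower on the array. By limma's unadjusted p under 0.05 none was lower either. In coding regions 3 were higher, 2 were lower and 2 did not pass (median 0.03), against 34.9% higher and 49.1% lower. PRE7, a beta subunit without a proteolytic site, had the highest promoter ratio of the complex, 1.27 and 1.28 on the arrays, or 2.42-fold the median ratio. Its 4 probes lie in the promoter shared with the uridine permease gene FUI1 (chromosome 2, 140362 to 141187). The probe centred 710 bp from the first PRE7 coding probe had 2.24 and 2.26, and its neighbours had 1.21 and 1.22 towards PRE7 and 0.97 and 0.98 towards FUI1. The highest value was thus a peak of 1 probe flanked by lower ones, and at 206 bp the ratio was 0.64 and 0.67. In the channels this promoter averaged -0.13 in Cy5 and -1.37 in Cy3, so it was near the array's median in the channel labelled IP and dim in the channel labelled WCE.

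The genes of the 3 proteolytic beta subunits all had high promoters. PRE2, which encodes the chymotrypsin-like subunit, had 0.84 and 0.91 at the probe kept in the promoter it shares with the ribosomal protein gene RPL11A (chromosome 16). PRE3, which encodes the caspase-like subunit, had 0.70 and 0.79 in the promoter shared with OST1 (chromosome 10). PUP1, which encodes the trypsin-like subunit, had 0.60 and 0.70 in the promoter shared with PET123 (chromosome 15). Their coding regions did not move together: PRE3 was higher at 0.19 ± 0.02, PUP1 was lower with -0.12 and -0.06, and PRE2 had -0.05 and 0.03 and did not pass (adjusted p = 0.645; SD, n = 2 arrays).

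PRE4 had the lowest coding ratio of the complex and a high promoter. This beta subunit gene on chromosome 6 had -0.47 and -0.36 in its coding region, over 2 kept probes of 3. At its 1 promoter probe (249885 to 249943) it had 0.40 and 0.44. The coding probe nearest the start was left out by the filter on marked spots and had 0.02 and 0.16, and with all 3 probes the coding value was -0.25 ± 0.08 and still lower, whereas with normexp it was 0.11. PUP3 was higher in both regions, at 0.10 ± 0.09 in the coding region and 0.36 ± 0.03 at the promoter. PRE1 passed in neither, yet its 6 promoter probes were far from uniform: they had 0.60 and 0.71 nearest the gene and -0.58 and -0.50 at 1433 bp upstream.

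Base genes had lower promoter and coding ratios than core genes on average. Of the base's 10 promoters 5 were higher, 3 were lower and 2 did not pass (median 0.07), against 70.8% higher and 16.3% lower on the array. Of 9 coding regions 2 were higher, 6 were lower and 1 did not pass (median -0.07), against 34.9% higher and 49.1% lower. The 6 ATPase genes RPT1 to RPT6 had a promoter median of -0.04, with 2 higher, 3 lower and 1 not passed, and the median turned to 0.15 with normexp and to 0.022 with normexp and loess. The 4 base genes that encode no ATPase had a promoter median of 0.34, with 3 higher and 1 not passed. With normexp that median was 0.063, below the ATPases, and with normexp and loess it was 0.16, above them. Without normexp the lowest value of these 4 genes, 0.06 for RPN13, lay within the range of the ATPases, and the others lay above it.

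RPT1 had the lowest promoter ratio of the complex. Its 1 probe (chromosome 11, 174077 to 174136) had -0.55 and -0.49, and its coding region had -0.00 and 0.03 and did not pass. The promoter was 0.698-fold the array's median ratio, and dim in both channels, at -2.19 in Cy5 and -1.64 in Cy3, and with normexp its sign turned, to 0.20. RPT6 was the only gene of the complex with a higher coding region and a lower promoter: 0.06 and 0.09 in the coding region, and -0.19 and -0.15 at the 1 probe shared with YGL047W (chromosome 7, 411315 to 411374). RPT4 was lower in both regions, at -0.15 ± 0.02 in the coding region and -0.13 ± 0.03 at the promoter. That promoter mean joined unlike probes, 0.39 on both arrays next to RPT4 and -0.70 and -0.61 next to GCD1.

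RPT3 and RPT5 had the reverse pattern of RPT6, lower in the coding region and higher at the promoter, by small amounts. RPT3 (chromosome 4) had -0.07 and -0.08 in its coding region and 0.07 and 0.09 at its promoter. RPT5 (chromosome 15) had -0.22 and -0.20 in its coding region and 0.16 and 0.04 at its promoter. The RPT5 promoter value depended on a saturated probe, and without saturated probes it was -0.06 and lower (adjusted p = 0.00909). RPT2 was lower in its coding region at -0.05 ± 0.002, and its promoter, at 0.06 ± 0.04, did not pass (adjusted p = 0.0794).

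RPN1 and RPN2, the large scaffold proteins that join the ATPase ring to ubiquitin receptors, are the longest genes of the complex, with 12 and 13 kept coding probes. RPN1 (chromosome 8) had -0.16 and -0.13 in its coding region and 0.24 and 0.42 at its 1 promoter probe. RPN2 (chromosome 9) had -0.10 and -0.06 in its coding region and 0.33 and 0.37 at its 1 promoter probe. With the median over its probes in place of the mean, the RPN2 coding value was 0.015 and did not pass. Both were lower inside and higher upstream, and the sign changed within the gene: the first coding probe had 0.43 and 0.53 in RPN1 and 0.38 and 0.46 in RPN2, whereas the lowest had -0.64 and -0.63 at 1670 bp in RPN1 and -0.88 and -0.87 at 1566 bp in RPN2. RPN10 (chromosome 8), which encodes a ubiquitin receptor, stood apart from the other base genes, with 0.09 and 0.14 in its coding region and 0.64 and 0.68 at its 1 promoter probe. RPN13, which also encodes a ubiquitin receptor, had 0.02 and 0.10 at its promoter and did not pass limma's test (adjusted p = 0.063).

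Lid genes were mostly near or below 0 in their coding regions. Of the lid's 8 coding regions 1 was higher, 4 were lower and 3 did not pass (median -0.06). Among all genes 34.9% of coding regions were higher and 49.1% lower (median -0.04). Of 8 lid promoters 5 were higher, 2 were lower and 1 did not pass (median 0.14), against 70.8% higher and 16.3% lower (median 0.23). RPN5 (chromosome 4), a scaffold subunit gene, had -0.31 and -0.29 in its coding region and 0.12 and 0.19 at its 1 promoter probe. The low coding value ran evenly along the gene, with each of the 5 probes between -0.36 and -0.26 in the mean of the arrays. RPN9 (chromosome 4), another scaffold subunit gene, had -0.26 and -0.25 in its coding region, less low than RPN5 on both arrays and not evenly spread. Its probe at 453 bp had -0.85 and -0.80, and the other 3 lay between -0.11 and -0.02 in the mean of the arrays.

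RPN11, which encodes the deubiquitinating enzyme of the lid, and RPN12 were also lower inside and higher upstream. RPN11 (chromosome 6) had -0.07 and -0.09 in its coding region and 0.11 and 0.13 at its promoter. RPN12 (chromosome 6) had -0.17 and -0.16 in its coding region and 0.31 and 0.40 at its promoter. The lower coding values depended on the probes used. Without end probes RPN11 was 0.12 and higher, and with the median over probes RPN12 was 0.017 and did not pass. RPN8, which encodes the partner of Rpn11, was the only lid gene higher in both regions, at 0.09 ± 0.03 and 0.16 ± 0.03 (SD, n = 2 arrays). RPN7 (chromosome 16) had the second lowest promoter of the complex, -0.22 and -0.18 at its 1 probe, and -0.05 and -0.01 in its coding region, which did not pass. RPN6 had a promoter of 0.44 ± 0.05, the highest of the lid, and RPN3 passed in neither region.

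RPN4, the gene of the transcription factor, also had a lower coding region and a higher promoter. It had -0.13 and -0.14 over 5 coding probes (chromosome 4) and 0.44 and 0.49 over 4 promoter probes (416801 to 417420). The second promoter probe from the gene, at 380 bp, had 0.90 and 0.94, and the others lay between 0.25 and 0.38 on either array. RPN14, an assembly chaperone gene of the base, had 0.04 and 0.00 in its coding region, which did not pass, and 0.11 and 0.05 at its promoter, which was higher (adjusted p = 0.0175). Without saturated probes its promoter was -0.13 and lower, so its direction rested on the brightest spots.

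Comparing the parts, core particle promoters stood above those of base and lid. The core promoters averaged 0.58, against 0.08 in the base and 0.11 in the lid, and the differences were 0.50 ± 0.0006 and 0.47 ± 0.003 (SD over the 2 arrays). The core values ran from -0.05 to 1.28, those of the base from -0.52 to 0.66 and those of the lid from -0.20 to 0.44. So 5 of 14 core promoters exceeded the highest of the base, 8 exceeded the highest of the lid, and none lay below the lowest of either. In coding regions the core averaged 0.11, against -0.06 in the base and -0.10 in the lid, with differences of 0.17 ± 0.03 and 0.21 ± 0.03. All 4 differences kept their sign in the mean of the arrays with normexp and with normexp and loess, and their size changed. Those at promoters were then 0.15 ± 0.06 and 0.12 ± 0.11 against the base. Against the lid they were 0.26 ± 0.003 and 0.15 ± 0.14. Those in coding regions were 0.22 ± 0.18 and 0.066 ± 0.061 against the base. Against the lid they were 0.15 ± 0.08 and 0.063 ± 0.055. With normexp and loess the spread between the arrays was thus nearly as large as each of the 4 differences. With at least 2 probes required for a promoter, the promoter difference from the lid was 0.24. The core also held the lowest coding value, that of PRE4, so the ranges overlapped fully at the low end. No p is given for these differences, because genes are not replicates and 2 arrays cannot give an exact p below 0.5.

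The base and the lid were not separated from each other. Their difference was 0.05 ± 0.002 in coding regions and -0.03 ± 0.003 at promoters, base minus lid. With normexp background correction, alone or with loess, both signs turned, and the promoter sign also turned with 60-nt probes only and with tandem promoters only.

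**Figure D2:**
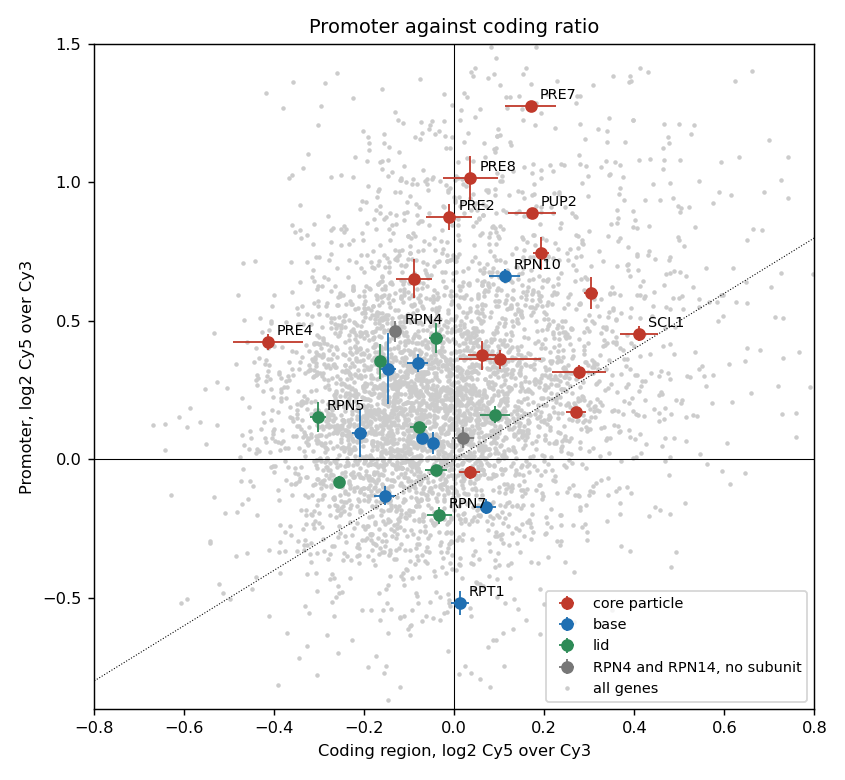
Promoter ratio (vertical) against coding ratio (horizontal) as log2 Cy5 over Cy3, for the core particle (red), base (blue), lid (green), RPN4 and RPN14 (dark grey) and all genes (light grey, those beyond the axes not drawn). Points are means and bars SDs over the 2 arrays, and the dotted line marks equal ratios. Of the 33 proteasome genes with both regions, 28 lie above the line, and RPT1, at -0.52 on the promoter axis, lies farthest below it.

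Within genes, the promoter was mostly above the coding region. The difference of promoter minus coding was formed in each array, which removes the centring and any dye effect common to all probes. It was higher than 0 in 24 of 33 proteasome genes, lower in 5 and not passed in 4, against 71.9% higher and 17.9% lower among 4575 genes. The median was 0.30 for the proteasome genes and 0.25 for all genes. PRE7 had the largest difference, 1.14 and 1.08, followed by PRE8 with 0.97 and 0.99 and PRE2 with 0.89 and 0.88. At the other end were RPT1 with -0.55 and -0.51, RPT6 with -0.24 and -0.24, and RPN7 with -0.17 and -0.17. PRE9 and PRE1 were the other 2 genes in which the promoter was lower than the coding region, by -0.10 ± 0.04 and -0.08 ± 0.001.

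The 2 regions of a gene were called in the same direction in some genes and in opposite directions in others. Both were higher in 11 of 33 genes, 9 of them of the core particle, against 27.2% of 4575 genes of the array. Both were lower in 2, RPT4 and RPN9, against 9.81% of the array, and RPT6 alone had a higher coding region with a lower promoter, against 4.13%. The coding region was lower and the promoter higher in 10 genes, against 32.2% of the array: PRE4, PUP1, RPN1, RPN2, RPT3, RPT5, RPN11, RPN12, RPN5 and RPN4. Across the 33 genes, which share the 2 arrays, Pearson's r between coding and promoter ratio was 0.30 and Spearman's rho 0.34. Across 4575 genes of the array r was 0.27 and rho 0.21.

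Core particle genes are short, and on this array the ratio moved with the number of coding probes. The core genes had 2 to 4 kept coding probes (median 2), against a median of 5 in the base and 4 in the lid. Over all genes the median coding ratio was 0.12 with 2 probes, 0.06 with 3, 0.02 with 4, -0.05 with 5 to 7 and -0.15 with 8 or more. Among genes with 2 to 4 probes the 14 core genes averaged 0.11 and the 10 genes of base and lid -0.05. The difference was 0.16 ± 0.04 (SD over the 2 arrays). All 2305 genes of the array with 2 to 4 probes averaged 0.08, near the core and above base and lid. At the first kept coding probe alone the 14 core genes averaged 0.12 and 17 base and lid genes 0.06. The difference was 0.06 ± 0.03. For PRE4 that probe, at -0.63 the lowest of the core genes, was not the one nearest its start. The probe nearest the start of PRE4, at 0.09, had been left out by the filter on marked spots. Between 2 and 4 probes the numbers were not alike, since 8 of the 14 core genes had 2 probes and all 10 genes of base and lid had 3 or 4. Among genes with 2 probes, 8 core genes averaged 0.10, against 0.15 in 714 genes of the array. With 3 probes, 3 core genes averaged 0.16 and 3 lid genes -0.08, against 0.08 in 828 genes. With 4 probes, 3 core genes averaged 0.08, 4 base genes -0.0045 and 3 lid genes -0.08, against 0.03 in 763 genes. The part of gene length in the difference was not tested. These comparisons by probe, and the pooling of base with lid, were chosen after the values had been seen.

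**Figure D3:**
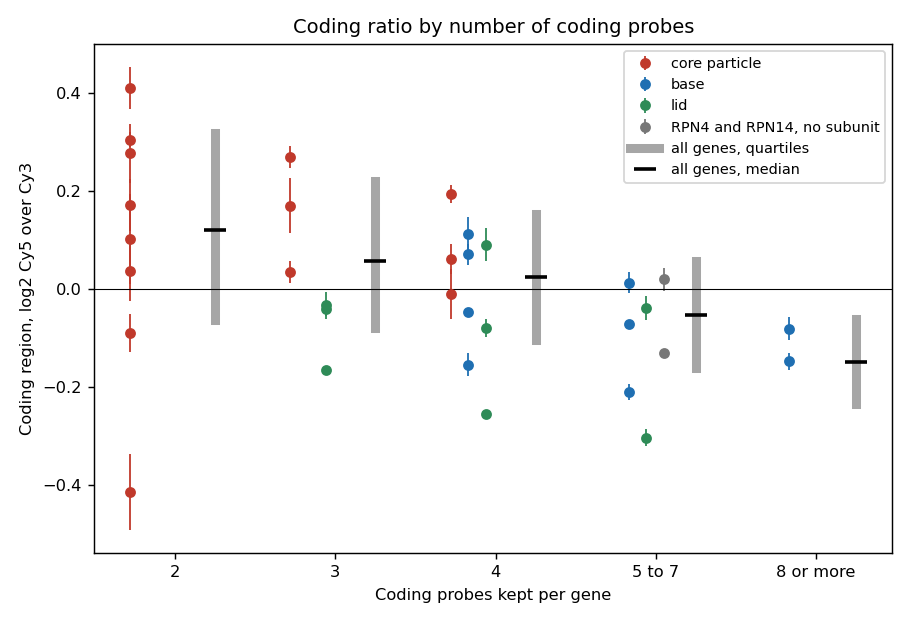
Coding ratio (log2 Cy5 over Cy3) by the number of kept coding probes, for core particle (red), base (blue), lid (green) and RPN4 and RPN14 (grey), as means with SDs over the 2 arrays. The bar and black dash at the right of each class give the quartiles and median of all genes. All 14 core genes lie in the classes of 2 to 4 probes, and PRE4, at -0.41, is the lowest gene drawn.

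The promoter difference between the parts was seen in shared and in unshared promoters. A divergent promoter lies between 2 genes that are read in opposite directions, and its probes count for both. Of the 34 proteasome genes, 20 had a divergent promoter (58.8%, against 52.4% of all genes with a measured promoter), and no 2 of them shared one. Among divergent promoters the median was 0.65 in 9 core genes, 0.06 in 5 base genes and 0.16 in 6 lid genes, against 0.29 in 2712 genes of the array. Among tandem promoters it was 0.38 in 5 core genes, 0.08 in 5 base genes and -0.06 in 2 lid genes, against 0.17 in 2462 genes. The core was thus above both other parts in either class, and 14 of the 34 promoters rested on 1 probe.

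Counted by single probes, the core particle again had the largest share above 0 of the 3 parts. In promoters 34 of 37 core particle probes were above 0 in the mean of the arrays, against 10 of 19 in the base, 9 of 12 in the lid and 73.9% of 9074 on the array. In the alpha ring all 19 promoter probes were above 0, 18 of them on both arrays. In coding regions 25 of 37 core particle probes were above 0, against 25 of 57 in the base, 10 of 33 in the lid and 43.6% of 29599 on the array. The brightness in the channels differed too: core promoters averaged -0.12 in Cy5 and -0.66 in Cy3, base promoters -0.48 and -0.52, lid promoters 0.08 and 0.00, and promoters of all genes -0.21 and -0.45. Core promoters were thus brighter than base promoters in the channel labelled IP and slightly dimmer in the channel labelled WCE, and dimmer than lid promoters in both.

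Of the 20 shared promoters, 16 had coding values for both genes. The proteasome gene had the higher coding ratio in 10 of the 16, and in all 6 that belonged to the core particle. For PRE7 the coding region had 0.17 ± 0.06 and that of its partner FUI1 -0.29 ± 0.04, on either side of the same promoter. PRE5 had 0.30 ± 0.02 and its partner TGL3 -0.25 ± 0.004. In the other direction, RPT6 had 0.07 ± 0.02 and its partner YGL047W 0.45 ± 0.05 (SD, n = 2 arrays). ENO1 and RPL11A, the partners of PUP2 and PRE2, and YOL038C-A, that of PRE6, had no coding value, and RPN13 had none of its own.

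Along the genes, the mean ratio was lower inside the coding region than just upstream of it in all 3 parts, and in the core it was above 0 throughout. The probe next upstream of the coding region averaged 0.56 ± 0.04 in 14 core genes, 0.20 ± 0.01 in 9 base genes and 0.15 ± 0.04 in 8 lid genes, against 0.23 ± 0.03 in 4564 genes of the array. At the third coding probe the means were 0.17 ± 0.03 in 6 core genes, -0.03 ± 0.01 in 9 base genes and -0.21 ± 0.02 in 8 lid genes, against -0.06 ± 0.02 in 4270 genes. The last coding probe averaged 0.15 ± 0.03 in the core, -0.04 ± 0.03 in the base and -0.18 ± 0.01 in the lid, against 0.00 ± 0.02 in 4984 genes (SD over the 2 arrays). Genes with fewer probes drop out along this series, so the sets of genes change from point to point.

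**Figure D4:**
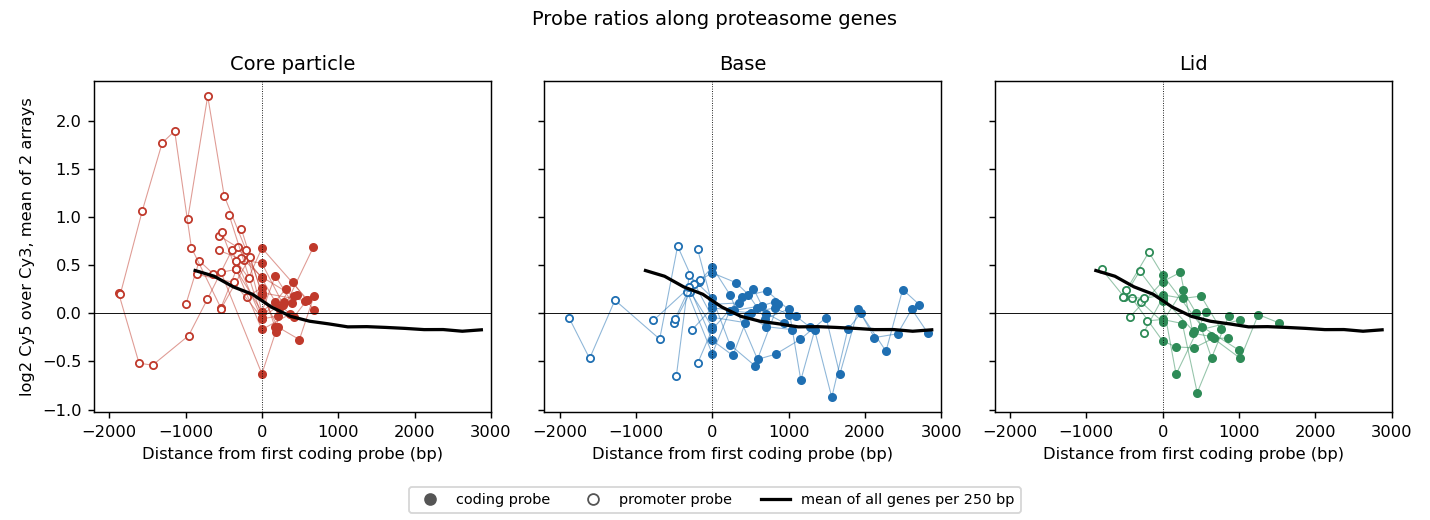
Log2 Cy5 over Cy3 of every kept probe of the core particle, base and lid genes, as the mean of the 2 arrays. The horizontal axis is the distance in bp from the gene's first kept coding probe in the direction of transcription. Filled circles are coding probes, open circles promoter probes, thin lines join the probes of a gene, and the black line is the mean over all genes per 250 bp. The tallest promoter point is PRE7 at 2.25, and the lowest point is a coding probe of RPN2 at -0.87.

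The ends of a coding region were compared with its interior in the 19 proteasome genes with at least 4 kept coding probes. The mean of the first and last probe was above that of the others in 7 genes, below it in 6 and not passed in 6, against 59.9% higher and 23.7% lower among 3454 genes. The median was 0.04 for the proteasome genes and 0.11 for all genes. RPT4 had the largest positive difference, 0.64 and 0.49 on the arrays, followed by RPN9 with 0.39 and 0.45 and RPN2 with 0.39 and 0.40. In RPT4 both end probes were saturated in a channel on an array, and with normexp its difference was -0.071. RPN11 had -0.39 and -0.40, RPT1 had -0.29 and -0.26 and RPT3 had -0.27 and -0.23, so these 3 genes had higher ratios inside than at their ends. In RPN11 this came from a second probe at 0.22 and 0.26 and a last probe at -0.44 and -0.49.

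The members are spread over 13 chromosomes, and few lie close together. RPT4 and RPN8 on chromosome 15 had 1 gene of the array between them, as had PRE4 and RPN12 on chromosome 6, and PRE2 and RPN7 on chromosome 16 had 4. In the pair on chromosome 6 both coding regions were lower and both promoters higher. In the other pairs the values went apart: RPT4 was lower in both regions and RPN8 higher in both, and the promoters of PRE2 and RPN7 were at 0.88 and -0.20.

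Other genes that act with the proteasome were described for comparison. All genes of the array serve as their background, with 34.9% higher and 49.1% lower coding regions (median -0.04), and 70.8% higher and 16.3% lower promoters (median 0.23). By name, 16 of 17 listed assembly and associated factors were found on the array. Their 15 measured coding regions gave 4 higher, 10 lower and 1 not passed (median -0.13). Their 14 measured promoters gave 11 higher, 2 lower and 1 not passed (median 0.26), a share near that of the array. The listed BLM10 was not found under that name, and BLM3, its older name on the array, was not counted. UMP1, a maturation factor of the core particle that is its first substrate, had the highest coding ratio of this list, 0.34 and 0.44. YPL144W, named POC4 in the RefSeq R64 gene table and a chaperone of alpha ring assembly, followed with 0.23 and 0.30, and it also had the highest promoter of the list, 0.70 and 0.75. ECM29, which encodes a large proteasome-binding protein, was lowest in both among the 16 found. It had -0.25 and -0.22 in its coding region and -0.23 and -0.17 at its promoter. BLM3, not counted, was lower than ECM29 in its coding region, at -0.28 over 21 probes in the mean of the arrays. At its promoter BLM3 had -0.04.

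For genes of ubiquitin, its conjugation and substrate delivery, 6 of 26 measured coding regions were higher, 19 were lower and 1 did not pass (median -0.17), against 34.9% higher and 49.1% lower on the array. Of 26 promoters 16 were higher, 6 were lower and 4 did not pass (median 0.17), against 70.8% higher and 16.3% lower. UBC4, a ubiquitin-conjugating enzyme gene, was highest in both, with 0.29 and 0.35 in its coding region and 1.15 and 1.23 at its promoter. UBC6, another conjugating enzyme gene, had the lowest coding ratio, -0.40 and -0.37, and NPL4, a partner gene of the segregase CDC48, had the lowest promoter, with -0.33 on both arrays. Of the CCT chaperonin, another ring complex, 1 of 8 coding regions was higher, 4 were lower and 3 did not pass (median -0.02), and of 7 promoters 4 were higher, 1 was lower and 2 did not pass (median 0.14). CCT6 had the highest promoter of this list, 0.98 and 1.01, and CCT5 the lowest coding region, -0.27 and -0.25.

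The test compares a value with a spread that limma drew close to a common SD, 0.03 for coding regions and 0.05 for promoters, so small ratios passed it, and it measures only the spread between these 2 arrays. With normexp background correction no proteasome gene passed in any of the 4 comparisons by limma's adjusted p, and 1 was higher and 4 were lower in coding regions and 4 were higher at promoters at an unadjusted p under 0.05, while the correlation between the arrays was 0.285, against 0.966 with normexp and loess, where no proteasome gene passed either, and 0.992 with the scanner's processed signals. Centring on the mode in place of the median left 7 proteasome coding regions higher and 8 lower, against 993 and 1691 of 4996 among all genes.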

How the data were processed

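The deposited scanner files hold spot intensity, read with Agilent Feature Extraction 9.1.3.1 from design 014810. Per the file headers, that software subtracted background, removed spatial and multiplicative trends and equalised the dyes linearly on each array. The authors' deposited log2 table equals the log2 ratio of processed Cy5 to Cy3 within 5.00e-06 at every probe, without centring (medians 0.03 and -0.00 on arrays 1 and 2). No source used here names the coordinates' build, so the RefSeq R64 gene table served for names and locus tags; all 34 names matched it.

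The log2 ratios were recomputed from the processed signals and centred on each array's median over kept probes. Probes with a non-uniformity or population outlier mark in any channel of any array, or dim in Cy3 (not well above background), were left out, as were 3444 control spots. This kept 40890 of 41775 probes. Saturated spots were kept, and their ratios are compressed. Gene values were means of kept probes: at least 2 coding probes, at least 1 promoter probe, and at least 4 coding probes for ends against interior. The test against 0 was limma's (version 3.58.1, functions lmFit and eBayes, R version 4.3.3), with p-values adjusted by Benjamini-Hochberg over all nuclear genes and called at 0.05. The planned fits covered all genes. Mitochondrial genes were taken out after fits with them had been seen, and they are given as an alternative chosen after seeing the data. The fits were tested on simulated data. Having only 2 arrays limits the precision. Median spots of 34318 to 36699 in Cy5 and 34487 to 36103 in Cy3 stood over local backgrounds of 64 to 87.5. Differences between core, base and lid are means over genes per array, with no test.

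The members and the lists were chosen with earlier results of these data known. Named genes are all members, with values on each array for the 3 highest and 3 lowest in coding regions, promoters and their difference, for members whose regions were called in opposite directions and for RPN4; single probes and ends-against-interior genes were named after their values were seen. A motif search in the promoters was planned and not run, and no sequence was used here. Alternatives covered background correction, loess, centring on the mode, probe filters, saturated spots, 60-nt probes, the median over probes, minimum probes (3 coding and 2 promoter), the deposited table, end probes, tandem promoters, RPN10 left out of the base, and each array alone.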

Additional observations from a re-analysis of the deposited data

How the results depend on the processing

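No paired analysis was possible because the study has 1 group of samples. Most calls were lost when normexp, alone or with loess, replaced the scanner's processed signals, which also drops the scanner's detrending and dye step. Among all genes limma called 4193 coding regions, against 10 with normexp, 0 with normexp and loess and 2684 with centring on the mode. Of promoters it called 4503, against 0 with normexp, 0 with normexp and loess, 2867 of 3218 with more probes required and 2179 of 2566 with tandem promoters only. Of promoter minus coding differences it called 4109, against 45, 0, and 2250 of 2442 with more probes required; of differences between ends and interior 2887, against 0 with normexp, 54 with normexp and loess and 1749 of 2087 with 60-nt probes only. At an unadjusted p under 0.05, limma put 704 promoters above 0 and 31 below with normexp, and with loess added 86 promoters above and 0 below, 431 coding regions above and 154 below, and 693 differences above and 38 below. Between ends and interior normexp gave 195 above and 35 below. For the proteasome genes, normexp gave 0 higher and 0 lower by limma's adjusted p in each comparison, and so did normexp with loess. At an unadjusted p under 0.05 normexp gave 1 higher and 4 lower coding regions, 4 higher and 0 lower promoters, 3 higher and 0 lower differences, and 2 higher and 1 lower between ends and interior; with loess these were 2 and 0, 0 and 0, 5 and 0, and 2 and 2. Centring on the mode left 7 coding regions higher and 8 lower, against 993 and 1691 of 4996 among all genes. With more probes required 7 of 25 coding regions were higher, against 1320 of 4282 among all genes. Of 20 promoters 1 was lower, against 453 of 3218. Of 13 differences 11 were higher and 1 was lower, against 1933 and 317 of 2442. With tandem promoters only, 9 of 14 were higher and 2 lower, against 1635 and 544 of 2566. With 60-nt probes only, 0 of 9 genes had ends below the interior, also at an unadjusted p under 0.05. Among all genes limma's adjusted p put 528 of 2087 below in that setting.

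The difference between core and base in coding regions, 0.17, was 0.22 with normexp, 0.066 with normexp and loess and 0.22 without saturated probes. Between core and lid, 0.21, it was 0.15, 0.063, 0.15 with 60-nt probes and 0.17 with the median over probes. Between base and lid, 0.046, it was -0.070 with normexp, -0.0038 with loess added, 0.032 with no probe filter, 0.015 without saturated probes, 0.0034 with 60-nt probes, 0.022 with the median, 0.037 without end probes and 0.025 without RPN10. At promoters, core minus base, 0.50, was 0.15 with normexp, 0.12 with loess added, 0.50 with no probe filter, 0.53 without saturated probes, 0.45 with 60-nt probes, 0.48 with the median, 0.53 with more probes required, 0.33 with tandem promoters and 0.56 without RPN10. Core minus lid, 0.47, was 0.26, 0.15, 0.48, 0.49, 0.46, 0.44, 0.24 and 0.45 under the same settings up to tandem promoters. Base minus lid, -0.031, was 0.11, 0.029, -0.024, -0.043, 0.011, -0.040, -0.29 and 0.12, and -0.10 without RPN10. On either array alone, core minus base was 0.14 to 0.19 and core minus lid 0.19 to 0.23 in coding regions, with base minus lid 0.044 to 0.047. At promoters these were 0.497 to 0.498, 0.46 to 0.47 and -0.033 to -0.030.

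Some single values changed sign. In coding regions normexp gave PRE10 -0.051, PRE4 0.11, RPN10 -0.017, RPN12 0.14, RPN8 -0.054 and RPT6 -0.14, and normexp with loess gave RPN11 0.018. Without end probes RPN11 was 0.12 and RPT3 0.029, and with the median RPN12 was 0.017 and RPN2 0.015. RPN14 was -0.081 without saturated probes and -0.036 with 60-nt probes, with which RPN7 was 0.083. At promoters normexp gave RPN14 -0.20, RPN8 -0.051, RPT1 0.20, RPT4 0.23, RPT5 -0.044 and RPT6 0.023, and normexp with loess gave RPT4 0.025. Without saturated probes RPN14 was -0.13 and RPT5 -0.059, and with 60-nt probes RPN14 was -0.11. For promoter minus coding normexp gave PRE1 0.021, PRE5 -0.028, RPN14 -0.17, RPT1 0.33 and RPT6 0.17, and normexp with loess gave PRE1 0.027, RPN14 -0.0016 and RPN8 -0.0065. With 60-nt probes PRE9 was 0.11 and RPN14 -0.073, without saturated probes RPN14 was -0.053, and with the median RPN14 was -0.022 and RPN8 -0.0039. Between ends and interior normexp gave PRE2 -0.18, RPN11 0.34, RPN8 0.025 and RPT4 -0.071. The cause was not tested. The deposited table, and the inclusion of mitochondrial genes, chosen after seeing the data, kept the direction and the side of the threshold of all 119 gene values. On each array alone, without a test, 111 of the 119 had the sign of the mean on both arrays; the other 8, none of them called, were PRE8, PRE2 and RPT1 in coding regions, RPT4 and RPN3 for promoter minus coding, and PRE10, RPT2 and RPT5 between ends and interior.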
